A study of Homo sapiens with 4 samples.

Results

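The 10 histone acetyltransferase genes examined here were *CREBBP* and its paralog *EP300*, the GNAT family genes *KAT2A*, *KAT2B* and *HAT1*, and the MYST family genes *KAT5*, *KAT6A*, *KAT6B*, *KAT7* and *KAT8*. They were listed by family and taken by symbol from the 20046 protein-coding genes, and 62700 genes of every type, of the GENCODE 44 annotation on GRCh38; the rule used no binding values, but earlier results of these data were known when the list was made. HK1 is a cell line of nasopharyngeal carcinoma, a tumour of the nasopharyngeal epithelium, and the cells overexpressed FLI1, an ETS family transcription factor, carrying a Flag tag. Flag-FLI1 was mapped by chromatin immunoprecipitation followed by sequencing (ChIP-seq) with an antibody to Flag, in 1 library from cells given PBS for 24 h (the control) and 1 library from cells given interferon gamma (IFN-γ) for 24 h. Both conditions carried the same FLI1 overexpression, so the antibody read the overexpressed tagged protein and not FLI1 at its natural level. With 1 library per condition no difference between the libraries could be tested against replicate error, and the intervals below cover counting error only.

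Histone acetyltransferases transfer an acetyl group from acetyl-CoA to lysines of histone tails, a mark found at active promoters and enhancers. CBP (encoded by *CREBBP*) and p300 (*EP300*) are large coactivators that many transcription factors recruit. The GNAT enzymes PCAF (*KAT2B*) and GCN5 (*KAT2A*) work within the SAGA and ATAC complexes, HAT1 acetylates newly made histones, and the MYST enzymes each act in complexes of their own, among them TIP60 (*KAT5*), MOZ (*KAT6A*), MORF (*KAT6B*), HBO1 (*KAT7*) and MOF (*KAT8*). ETS factors such as FLI1 recognise DNA around a GGAA core. The study asked whether FLI1 acts through a chromatin modifier, and the question for the peak lists was at which of these genes Flag-FLI1 was found and whether the signal there differed after IFN-γ.

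The peak lists held 30819 control peaks and 39654 IFN-γ peaks. Each peak has a summit, the position with the most overlapping fragments. The number of fragments there and the local background were recovered from the deposited fold enrichment, which is the number of fragments plus 1 over the background plus 1. The median peak had 16 fragments at its summit in the control and 22 in the IFN-γ library, and the lowest backgrounds were 1.06 and 1.54 fragments. The ratio of these backgrounds, 1.46, was used to scale the control library to the depth of the IFN-γ library. After this scaling the median ratio of IFN-γ to control over 24639 overlapping pairs of peaks was 1.00.

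Flag-FLI1 peaks stood at the promoters of all 10 genes in the control and of 9 in the IFN-γ library, where *KAT2A* had none. A promoter peak was one that overlapped the 3 kb either side of the transcription start site (TSS) of any annotated transcript. By the same rule 61.9% of protein-coding genes had a promoter peak in the control and 59.7% in the IFN-γ library. The acetyltransferase genes had more annotated start sites than usual, with a median of 12 per gene beside 5 over all protein-coding genes, which gives a promoter rule more windows to call. With only the start site of the MANE Select transcript (1 representative transcript per gene) the counts were again 10 and 9, beside 57.9% and 54.5% of protein-coding genes, and with windows of 1 kb they were 10 and 9 beside 58.9% and 55.6%.

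The sequences under the promoter summits are shown first, because 4 of the genes carried a full ETS octamer there and the others only its core. The octamer was CAGGAAGT or CCGGAAGT on either strand within 100 bp of the summit, and every octamer found at these genes was CCGGAAGT. The lines below are from GRCh38, with the octamer in capitals and each sequence read 5′ to 3′ on the strand that carries the octamer. They lie at chr11:65712230-65712258 (+) for *KAT5*, chr17:49788629-49788657 (+) for *KAT7*, chr2:171922424-171922452 (−) for *HAT1* and chr16:31117805-31117865 (+) for *KAT8*.
KAT5: tcccagaggggCCGGAAGTggcagtggag
KAT7: gcgagacccagCCGGAAGTgaaggaaaaa
HAT1: cgctcccgggCCGGAAGTgaccgcacagt
KAT8: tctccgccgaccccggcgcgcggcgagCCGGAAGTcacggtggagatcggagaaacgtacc

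In *KAT5* the centre of the octamer lay 3.5 bp from the control summit and 11.5 bp from the IFN-γ summit, and another CCGGAAGT lay 21.5 bp and 13.5 bp away on the other side. In *KAT7* the distances were 21.5 bp and 23.5 bp, and in *HAT1* 22.5 bp and 55.5 bp. In *KAT8* the octamer lay 49.5 bp from the control summit. The IFN-γ summit of *KAT8* was 77 bp further from it, so the octamer fell outside the window in that library. The octamer was thus counted at 4 of 10 control summits and 3 of 9 IFN-γ summits, where 16.9% of the 12407 protein-coding genes with a control promoter peak and 19.7% of the 11967 with an IFN-γ one had it. These are small counts beside the background share, and no test was made on them. In the RefSeq promoter windows of GRCh38.p14, from 250 bases before to 50 after a start, 8 of the 10 genes were matched (*KAT6A* and *KAT8* had no entry). The octamer was in those of *HAT1*, *KAT5* and *KAT7*, beside 7.02% of 35116 promoters. That share is by promoter and the members were counted by gene, and *CREBBP* and *KAT6B* had multiple windows, none with the octamer.

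The remaining genes had the GGAA core without the octamer. It was within 100 bp of all 10 control summits and all 9 IFN-γ summits, but it is a short sequence that 94.8% and 97.4% of genes with a promoter peak also had. The cores nearest the summits of *CREBBP* and *EP300* are shown because these genes encode the best known coactivators of the group and had a low and a high peak. They lie at chr16:3880829-3880889 (+) and chr22:41091688-41091748 (−), with each GGAA in capitals.
CREBBP: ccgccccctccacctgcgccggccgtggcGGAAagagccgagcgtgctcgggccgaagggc
EP300: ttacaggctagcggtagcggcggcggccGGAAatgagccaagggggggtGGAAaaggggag

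An AP-1 motif (TGANTCA, both strands) was at none of the promoter summits in either library, beside 5.55% and 8.31% of genes with a promoter peak.

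*CREBBP* and *EP300* differed widely in signal. *CREBBP* lies on the minus strand of chromosome 16 (3725054 to 3880713), and its strongest promoter peak (chr16:3880677-3881019 in the control library) was 99 bp upstream of the MANE Select start. Its summit held 21 fragments in the control and 13 in the IFN-γ library, with fold enrichments of 6.58 and 4.86. The *CREBBP* peak was thus in the weaker part of both lists, with 22.2% of genes with a promoter peak below it by fold in the control and 14.8% in the IFN-γ library. *EP300* lies on the plus strand of chromosome 22 (41092592 to 41180077), and its peak (chr22:41091455-41093207 in the control library) had a summit 868 bp upstream of the start. Its summit held 74 and 98 fragments, with fold enrichments of 24.9 and 25.8. The annotated start nearest to the *EP300* summit was that of the microRNA gene *MIR1281*, 789 bp away, so the peak could be placed at either gene.

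The IFN-γ to control ratio of fragments, scaled for depth, was 0.425 at *CREBBP* (exact binomial 95% interval 0.196 to 0.890) and 0.910 at *EP300* (0.666 to 1.25). The interval of *CREBBP* lay below 1 and that of *EP300* held it. The *CREBBP* ratio moved to 0.739 when fold enrichments were compared instead of fragments, which is the largest dependence on the scale among these genes. Its background was 1.88 fragments in the IFN-γ library, and 2.35 in the control library or 3.41 when scaled to the IFN-γ depth. *CREBBP* had an additional control peak of 11 fragments at chr16:3880014-3880249, in the UTR of exon 1 and 617 bp downstream of the MANE Select start, that no IFN-γ peak overlapped.

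Among the GNAT genes, *KAT2B* and *HAT1* had promoter peaks in both libraries. *KAT2B*, the gene of PCAF (chromosome 3, 20040446 to 20154404, plus strand), had 36 control and 32 IFN-γ fragments at a summit 398 bp and 436 bp upstream of its start. Its fold enrichments were 15.3 and 7.88, and its ratio was 0.610 (0.367 to 1.01). *HAT1* (chromosome 2, 171922448 to 171983686, plus strand) had 33 and 55 fragments, fold enrichments of 12.9 and 13.4 and a ratio of 1.14 (0.730 to 1.82). The control summit of *HAT1* fell on its MANE Select start itself and the IFN-γ summit 33 bp into the exon, 0 bp and 32 bp from the nearest annotated start. Both intervals held 1.

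*KAT2A*, the gene of GCN5 and the paralog of *KAT2B* (chromosome 17, 42113111 to 42121367, minus strand), was the only gene of the 10 without an IFN-γ promoter peak. Its control peak (chr17:42121004-42121382) lay in exon 1, 82 bp from the start, with 12 fragments over a background of 1.43 and a fold enrichment of 5.35. This was the lowest pileup among the strongest promoter peaks of the group, and 11.1% of protein-coding genes with a control promoter peak had a lower fold enrichment. The nearest IFN-γ summit was 10.9 kb away. At the depth of the IFN-γ library the same signal would be 17.5 fragments over a background of 2.08. The 12 control fragments had an exact Poisson interval of 6.20 to 21.0 before scaling. The fewest fragments of an IFN-γ peak at or under that scaled background was 7. This was also the fewest in the whole IFN-γ list, and it is not a limit of the call. The IFN-γ background at *KAT2A* is not known without a peak there. Whether depth or the call accounts for the missing peak was not tested. The start of *HSPB9*, on the opposite strand, lies 1437 bp upstream of *KAT2A*, within the promoter window, so the control peak could also be placed at that gene.

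The MYST genes ranged from strong to weak peaks. *KAT5*, the gene of TIP60 (chromosome 11, 65711996 to 65719604, plus strand), had 77 control and 89 IFN-γ fragments at summits 2 bp and 6 bp from the nearest annotated start, with fold enrichments of 23.3 and 16.1. Its ratio was 0.794 (0.579 to 1.09). *KAT8*, the gene of MOF (chromosome 16, 31114489 to 31131393, plus strand), had 52 and 42 fragments in exon 1, with fold enrichments of 23.9 and 10.3. The *KAT8* ratio was 0.555 (0.360 to 0.849), an interval below 1. A start of another annotated gene lay within 3 kb of the *KAT8* peak in each library, although the start nearest to the summit was that of *KAT8*.

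*KAT6A* and *KAT6B* are paralogs whose products form the MOZ and MORF complexes. *KAT6A* (chromosome 8, 41929479 to 42051994, minus strand) had 38 control and 33 IFN-γ fragments 211 bp and 148 bp upstream of its start, with fold enrichments of 19.0 and 8.12 and a ratio of 0.596 (0.363 to 0.977). An additional *KAT6A* control peak of 14 fragments in intron 1, 596 bp downstream of the MANE Select start, had no counterpart in the IFN-γ list. *KAT6B* (chromosome 10, 74824927 to 75032624, plus strand) had 23 and 18 fragments 691 bp and 664 bp upstream of its MANE Select start, with fold enrichments of 9.88 and 4.92 and a ratio of 0.538 (0.273 to 1.04). The control peak of *KAT6B* was 1774 bp wide and the IFN-γ peak 987 bp. *KAT7*, the gene of HBO1 (chromosome 17, 49788624 to 49835026, plus strand), had 17 and 26 fragments 2 bp and 8 bp from the nearest annotated start, with fold enrichments of 6.73 and 6.35 and a ratio of 1.05 (0.549 to 2.06). The start of *FAM117A*, on the opposite strand, lies 89 bp upstream of the *KAT7* MANE Select start, so the peak could be placed at either gene.

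**Figure D1:**
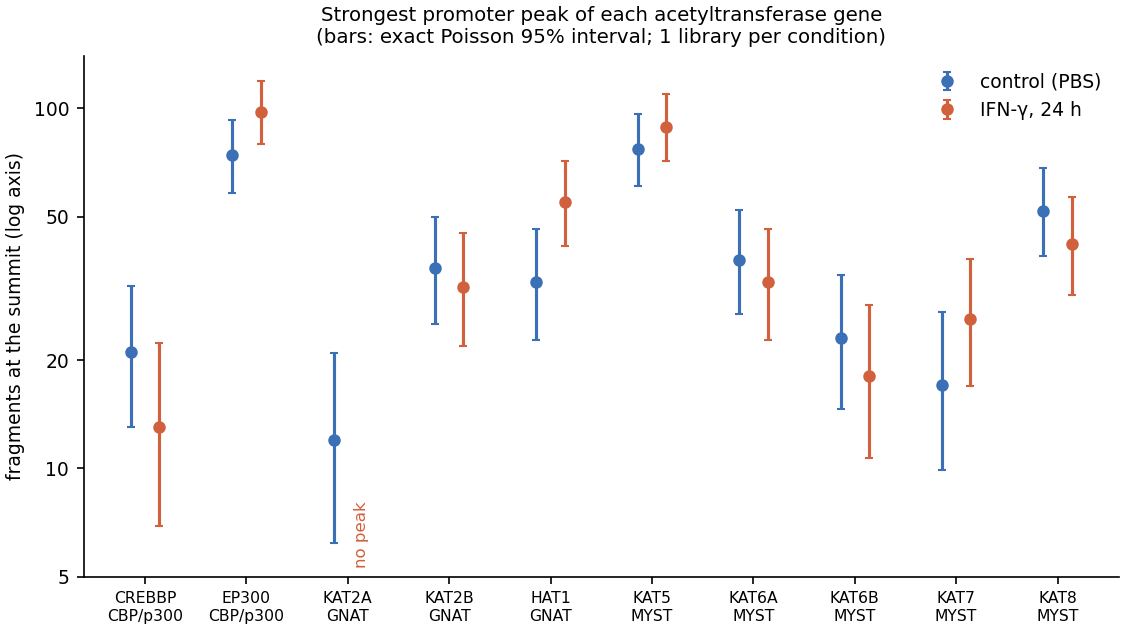
Number of fragments at the summit of the strongest promoter peak (vertical axis, log scale) for each gene and its family (horizontal axis), in the control library (blue) and the IFN-γ library (orange), before scaling for depth. Points are single libraries and bars are exact Poisson 95% intervals. *KAT5* and *EP300* stood highest in both libraries, between 74 and 98 fragments, and *KAT2A* had 12 control fragments and no IFN-γ peak.

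In the control library the genes ranked, by fragments at the summit, *KAT5*, *EP300*, *KAT8*, *KAT6A*, *KAT2B*, *HAT1*, *KAT6B*, *CREBBP*, *KAT7* and *KAT2A*. The exact interval of the ratio held 1 for all 9 pairs of neighbours in this order, so no adjacent places could be told apart by counting error. In the IFN-γ library the order was *EP300*, *KAT5*, *HAT1*, *KAT8*, *KAT6A*, *KAT2B*, *KAT7*, *KAT6B* and *CREBBP*. Here 7 of 8 neighbouring pairs held 1, and the step from *KAT5* to *HAT1* was 1.62 (1.14 to 2.31). *HAT1* stood at the sixth place in the control order and at the third in the IFN-γ order, *KAT7* at the ninth and the seventh, and *KAT5* and *EP300* exchanged the leading places.

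Set beside all protein-coding genes with a promoter peak, the group did not sit at one end. Its median fold enrichment was 14.1 in the control library, where the median over all such genes was 10.5, and 8.12 in the IFN-γ library, where it was 9.12. The median pileup was 34.5 beside 26 fragments and 33 beside 33. The peaks were somewhat wider, with medians of 902 bp beside 759 bp in the control and 754 bp beside 664 bp in the IFN-γ library. Summits lay a median of 94 bp and 104 bp from a start of their own gene, beside 114 bp and 147 bp. The distance is to the nearest of all annotated starts of the gene. These genes had a median of 12 starts, beside 5 over all protein-coding genes, which makes short distances easier to reach.

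The strongest promoter peaks of 9 genes overlapped between the libraries, with summits at most 77 bp apart, and gave 9 ratios with a median of 0.610. Over the 9887 protein-coding genes with such a pair the median was 0.850. Ratios were below 1 at 7 of the 9 genes, and at 67.8% of all pairs. *KAT8* was the only gene whose whole interval lay below the median of all pairs, 1 of 9 where 5.58% of all pairs did so, and its upper bound of 0.849 was next to that median. No gene had its whole interval above the median, where 11.0% of all pairs did. With no allowance for the shift of all promoters, the intervals of *CREBBP*, *KAT6A* and *KAT8* lay below 1, 3 of 9 where 14.4% of all pairs did so.

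The local background moved with several of these ratios. At *KAT2B*, *KAT6A* and *KAT8* the IFN-γ background was 3.19 fragments, against 1.42, 1.06 and 1.21 in the control library as sequenced, or 2.07, 1.54 and 1.77 scaled to the IFN-γ depth, so their fold enrichments differed more than their fragments did, with ratios of fold enrichments of 0.516, 0.428 and 0.429. The part of the background in these ratios was not tested. The ratio of fold enrichments was 1.04 at *EP300* and 0.944 at *KAT7*, on the other side of 1 from their ratios of fragments, so no direction is given for these genes. At *HAT1* it was 1.04, at *KAT5* 0.689 and at *KAT6B* 0.498, each on the same side of 1.

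Away from their own promoters, these genes had few peaks within the transcribed region, all of them in the IFN-γ list, which was the longer list. A gene body peak outside promoters was called for none of the 10 genes in the control library, where 19.1% of protein-coding genes had one, and for 3 genes in the IFN-γ library, where 25.3% had one. *CREBBP* had 1 in intron 1 (17 fragments, fold enrichment 4.66) and 1 in intron 2 (22 fragments, 6.93). The summit of the intron 2 peak was 752 bp from the start of *DPPA3P6*, an annotated processed pseudogene. *KAT6B* had 1 in intron 10 (13 fragments, 4.90) and 1 in intron 13 (14 fragments, 5.47). *HAT1* had 1 in intron 8 with 10 fragments and a fold enrichment of 4.34. All but that of *CREBBP* intron 2 were below the median fold enrichment of 6.57 over the IFN-γ list. Scaled to the control depth they correspond to between 6.87 and 15.1 fragments. The control peaks with the fewest fragments at or under the same backgrounds had 6 or 7. For the lowest, in *HAT1*, that smallest count was 7, beside 6.87. These are the smallest counts seen in the control list and not a limit of the call. By p-value the peaks of *KAT6B* intron 10 and *HAT1* intron 8 ranked 31240 and 34913, beyond the 30819 peaks of the control list. Lists of equal length would leave them out. The difference between the libraries in gene body peaks was not tested.

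With the 50 kb either side of each gene counted too, the genes had 30 control peaks and 38 IFN-γ peaks. The control peaks were 13 at promoters and 17 in the flanks, and the IFN-γ peaks were 10 at promoters, 5 in gene bodies and 23 in the flanks. In each list 23 overlapped a peak of the other list. The control list alone had 7 of the 30 peaks (23.3%), where 22.5% of all control peaks were without a partner, and the IFN-γ list alone had 15 of the 38 (39.5%), where the share over all IFN-γ peaks was 39.0%. The shares at these genes were therefore those of the lists as a whole. Flank peaks per gene had a median of 1 in the control and 1.5 in the IFN-γ library, beside 2 over all protein-coding genes in each.

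Most flank peaks were the promoters of neighbours, 16 of 17 in the control and 16 of 23 in the IFN-γ library. The strongest was at *ZNF646*, 43.3 kb upstream of *KAT8*, with 88 and 117 fragments and a ratio of 0.913 (0.687 to 1.22). *KAT8* had 8 flank peaks in each library, the most of the group, and lies among closely spaced genes that include *BCKDK* and *PRSS36*. A peak 49.4 kb upstream of *KAT5* was at the start of *RELA*, the gene of an NF-κB subunit, with 61 and 55 fragments and a ratio of 0.619 (0.422 to 0.907). Downstream of *KAT5*, a peak of 30 and 40 fragments counted as a promoter peak of a late *KAT5* transcript, but its control summit was 31 bp from the start of *RNASEH2C*, and its ratio was 0.916 (0.556 to 1.52). *KAT6A* had no flank peak in either library.

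*KAT6B* was the gene with strong peaks away from any annotated promoter. A peak in the IFN-γ list alone, at chr10:75034268-75034640 and just past the 3′ end of the gene, had 44 fragments and a fold enrichment of 16.5. Another, at chr10:74816959-74817484, had a summit 9.36 kb upstream of the MANE Select start, with 43 fragments and a fold enrichment of 13.6. Both exceeded the *KAT6B* promoter peak of the same library (18 fragments, 4.92). At the control depth they would have 30.2 and 29.5 fragments, and the fewest fragments of a control peak at or under such backgrounds was 6. That count is the smallest seen and not a limit of the call. A peak 26.6 kb upstream was in both lists, with 14 and 35 fragments and a ratio of 1.72 (0.901 to 3.45), an interval that held 1. That shared peak and the one past the 3′ end each carried an AP-1 motif within 100 bp of the summit.

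**Figure D2:**
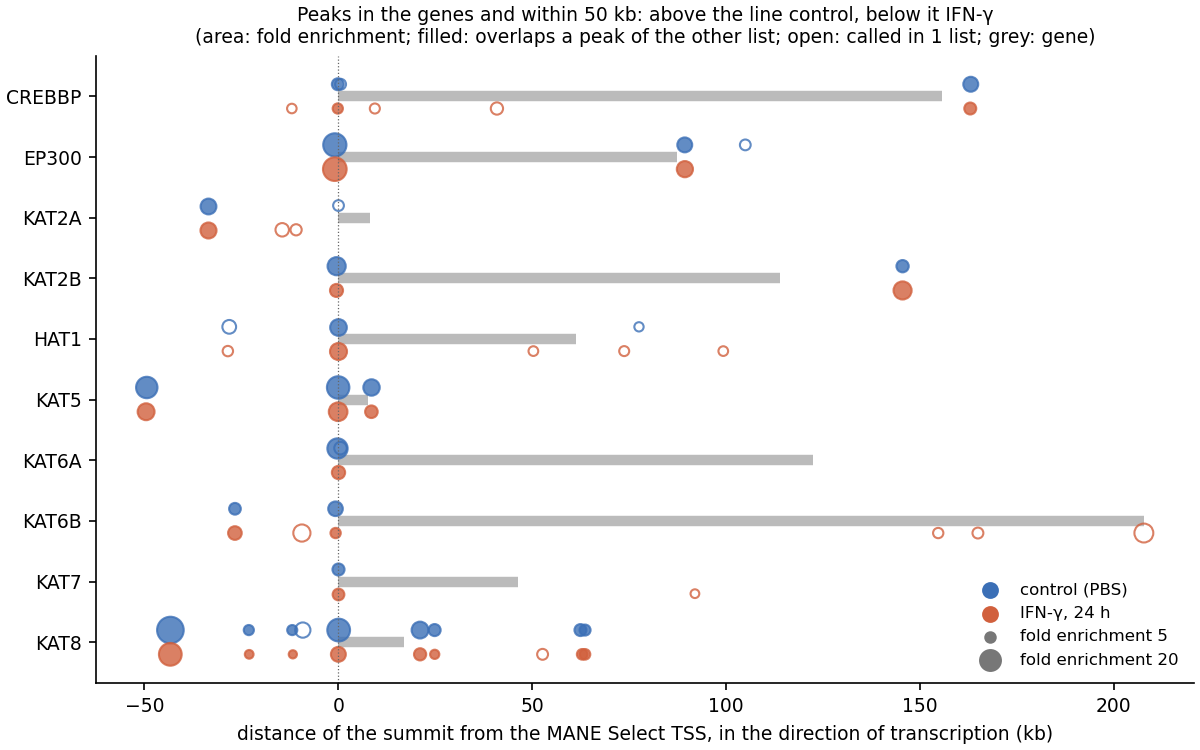
Summits of every peak in the genes and the 50 kb on each side, by distance from the MANE Select start in the direction of transcription (horizontal axis, kb), with 1 line per gene. Blue circles above the line are control peaks and orange circles below it IFN-γ peaks; the area is the fold enrichment, filled circles overlap a peak of the other list, open ones were called in 1 list, and the grey bar is the gene. The open orange circles inside gene bars are the 5 gene body peaks of *CREBBP*, *HAT1* and *KAT6B*, and the large open ones of *KAT6B* are the peaks with fold enrichments of 16.5 and 13.6.

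The Ewing sarcoma fusion protein that carries the DNA-binding domain of FLI1 is known to bind runs of the GGAA unit, and such runs were under 3 of the 15 peaks in the IFN-γ list alone. A run was at least 3 units of GGAA in a row, on either strand, within 100 bp of the summit, and 17.1% of all peaks in the IFN-γ list alone had one. The 3 were *CREBBP* intron 2 with 4 units, *KAT6B* intron 10 with 8 units and a flank peak downstream of *HAT1* (chr2:171996100-171996342, 15 fragments) with 4 units. At this *HAT1* peak another run of 4 units follows after gcaa, left in lower case in the line below. An AP-1 motif was under 4 of the 15 (flanks of *KAT6B*, *KAT2A* and *CREBBP*, and *HAT1* intron 8), where 27.5% of all peaks in the IFN-γ list alone had one, and an ETS octamer under 2 (flanks of *KAT2A* and *KAT8*), where 11.2% did. None of these counts was tested. The 3 runs are shown, and of the AP-1 motifs the one at the strongest of the 15 peaks, past the end of *KAT6B*. The lines lie at chr16:3839754-3839814 (+), chr10:74981294-74981354 (−), chr2:171996241-171996301 (−) and chr10:75034294-75034354 (+), with the run or motif in capitals.
CREBBP intron 2: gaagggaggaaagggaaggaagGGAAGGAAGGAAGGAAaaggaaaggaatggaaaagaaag
KAT6B intron 10: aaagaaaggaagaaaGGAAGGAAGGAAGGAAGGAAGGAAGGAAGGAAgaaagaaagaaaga
HAT1 flank: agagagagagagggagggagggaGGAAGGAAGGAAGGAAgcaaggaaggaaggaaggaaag
KAT6B flank: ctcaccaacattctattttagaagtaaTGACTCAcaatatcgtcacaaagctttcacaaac

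The enzymes act within complexes, and 70 genes of the partner subunits and of other acetyltransferases were examined by the same rule. A promoter peak was called at 66 of them (94.3%) in the control and 65 (92.9%) in the IFN-γ library, shares above the 61.9% and 59.7% of all protein-coding genes, and at 64 in both. No test was made on this list. The exceptions without a peak in either library were *TAF9B*, a subunit shared by SAGA and TFIID, *MBIP* of ATAC and *BRD8* of TIP60. *SGF29* and *JADE3* had a control peak only, with 16 and 11 fragments, and *TAF6L* had an IFN-γ peak only, with 33. These last 3 were named after their values were seen.

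The levels spread widely within each complex, and the genes given below had the highest and the lowest mean rank over both lists among those with a promoter peak in each. Fragment numbers here and in the next paragraph are as sequenced, before scaling for depth. In SAGA, which holds GCN5 or PCAF, *TADA3*, the gene of an adaptor subunit, had 155 and 180 fragments (fold enrichments 38.9 and 29.3), while *TADA2B*, another adaptor, had 12 and 15 at peaks that did not overlap, the IFN-γ one nearest to the start of *CCDC96*. In ATAC the highest by mean rank was *DR1*, a histone fold subunit, with 112 and 118 fragments, at a promoter whose nearest start was that of *CCDC18-AS1*, and the lowest *TADA2A* with 22 and 16. In TIP60 the highest was *RUVBL1*, an ATPase, with 89 and 124 fragments, and the lowest *ING3*, a reader of methylated histone tails, with 11 and 23. In each of these complexes the control fragments of the first gene were several times those of the second.

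The strongest IFN-γ promoter peak of all the genes examined was in the group of MOZ/MORF and HBO1 subunits. *ING4*, a PHD finger subunit of HBO1, had 103 control and 261 IFN-γ fragments, fold enrichments of 34.7 and 80.8 and a ratio of 1.74 (1.38 to 2.21). The lowest mean rank of that group was that of *BRPF3*, a scaffold subunit, with 18 and 12 fragments. In the MSL and NSL complexes of MOF, *HCFC1* had 73 and 113 fragments and *PHF20* 12 and 13, the latter at peaks that did not overlap. *RBBP7*, the histone chaperone partner of HAT1, had 39 in each library. Scaled for depth, the ratio was 0.687 (0.429 to 1.10) at *RBBP7* and 1.06 (0.785 to 1.45) at *HCFC1*, intervals that held 1. Among the other acetyltransferases and related genes, *CDYL* had 64 and 135 fragments and *NCOA1*, a nuclear receptor coactivator, 10 and 11.

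The strongest promoter peaks of 58 of the 70 genes overlapped between the libraries. Their median ratio was 0.812, between 0.356 and 1.88, and 41 of 58 were below 1, beside 67.8% of all pairs. The whole interval lay below the median of all protein-coding pairs at 5 of the 58 (*SUPT20H*, *TAF12* and *TRRAP* of SAGA, *EP400* of TIP60 and *MSL3*), beside 5.58% of all pairs, and above it at 5 (*ENY2*, *MORF4L2*, *ING4*, *TAF1* and *CDYL*), beside 11.0%. These genes were named after their values were seen, except *ING4* and *CDYL*. The lowest ratios among them were those of *MSL3*, 0.356 (0.173 to 0.703), and *EP400*, 0.442 (0.310 to 0.626). The complex genes thus lay close to the 0.850 of all promoters, and the 9 acetyltransferases had a lower median of 0.610, with no test of the difference.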

How the data were processed

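ChIP-seq of Flag-FLI1 was analysed in 1 control and 1 IFN-γ library of HK1 cells, and input libraries were not analysed here. Per the labels and methods, the authors used cutadapt 1.18 for trimming, Bowtie2 2.3.4.1 for alignment to GRCh38 and Picard for duplicate removal, then called peaks per library with MACS2 2.1.2 at a p-value cutoff of 0.01. Whether the input served as control of the call is not given in the sources used here. The deposited lists give, per peak, the fold enrichment at the summit (a ratio), its p-value and q-value as −log10, and a display score, which was not used. The lowest −log10 p-value from MACS2 was 3.52 among control peaks and 3.46 among IFN-γ peaks. The lowest −log10 q-values were 1.30 and 1.32. Every listed peak was thus well inside the stated p-value cutoff of 0.01, so that cutoff alone did not end the lists. What set their lower ends was not tested.

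For each summit, pileup and background were solved from the fold and the p-value as deposited, with a largest relative error of 6.21e-06. Depth is known only through these counts. Motifs, overlaps (at least 1 bp) and exact binomial or Poisson intervals at 95% were computed in Python 3.11.15 with scipy 1.17.1, pandas 2.3.3 and pysam 0.24.0, and the steps were tested on simulated data. GENCODE 44 gave genes and TSSs. Where classes overlapped, promoter came before gene body and gene body before the 50 kb flank.

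All 10 genes were named, with, per complex, the genes of highest and lowest mean rank among those with a promoter peak in both lists, and those without a promoter peak, and neighbours whose TSS was nearest to a strong peak. None was named for likeness of pattern, since each gene had a single ratio. The genes and lists were chosen with earlier results of these data known. Alternatives were q-value cutoffs, equal-length lists, other promoter, flank and motif definitions, and other scalings. Some planned results are not reported here.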

Additional observations from a re-analysis of the deposited data

How the results depend on the processing

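Each count and median was recomputed under every alternative listed for it, and 55 of these values stayed within 1.5 times the reported one, or, for the median ratio, within the counting interval of the gene at the median. With the GGAA core in place of the octamers, the motif was at 10 control and 9 IFN-γ summits. With a flank of 10 kb, 18 control and 21 IFN-γ peaks were assigned to the genes, and with flank peaks at another gene's promoter left out, 14 and 22. *KAT2A* lacked an IFN-γ promoter peak under every alternative run (q-values under 0.01 and under 1e-05, lists of equal length, windows of 1 kb, the MANE Select start alone and the summit in the window), and with lists of equal length *CREBBP* lacked one too. The ratio at *CREBBP* ran from 0.424 to 0.739, at *EP300* from 0.906 to 1.04 and at *KAT7* from 0.944 to 1.05. No paired analysis was possible because a condition with 1 library has nothing to pair. Promoter summits rest on 12 to 98 fragments, which limits the precision of each ratio.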
